A study of Mus musculus with 9 samples.

Results

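The 8 genes described here are Creb1, Crem and Atf1, the CREB-family transcription factors, with the coactivators that work with them: Crtc1, Crtc2 and Crtc3, Crebbp (which encodes CBP) and Ep300 (which encodes p300). They were taken by gene symbol from the 54532 gene rows of a hippocampal RNA-seq table, and all 8 were among the 19782 genes that passed the filter on low counts. The mice were N4 Ube3a m-/p+ animals, which lack the maternal Ube3a allele as a model of Angelman syndrome and had been crossed onto a 129 background to make them prone to seizures. At P21 (postnatal day 21) 5 mice received 0.5 nmol of Ant-134, a locked nucleic acid oligonucleotide that inhibits the microRNA miR-134, and 4 received 0.5 nmol of Scr, a scrambled oligonucleotide, into a cerebral ventricle. Mice of both groups were exposed to a seizure-inducing sound at P22, P24 and P26, and at P27 the hippocampus of the injected side was taken, so each library stands for 1 mouse. The mutation and the repeated sound were thus shared by both groups, and no wild-type, uninjected or unstimulated mice were analysed here. The seizures need not have been alike, since the paper reports that Ant-134 lowered their severity in this protocol. The part of seizure severity in the values below was not tested. The comparison asks whether levels of the Creb1 transcript, a reported target of miR-134, and of its family and coactivators differed 6 days after the inhibitor was given.

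CREB proteins bind a short DNA element, the cAMP response element (CRE), in the promoters of genes that neurons switch on with activity. Phosphorylation of CREB by kinases such as PKA and CaMKIV lets it recruit the histone acetyltransferases CBP and p300, while CRTC proteins enter the nucleus when calcineurin removes phosphates that SIK kinases had placed on them. In the hippocampus this pathway is best known for its part in long-lasting synaptic plasticity and memory. These steps act on proteins, so transcript levels do not show how much of each protein was made or how active it was. The paper reports more Creb1 protein in the hippocampus of Ant-134 mice after the repeated seizure tests. Transcript counts do not measure that.

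miR-134-5p was not itself measured in these poly-A libraries, but its sequence shows which members could pair with it. The mature microRNA (RefSeq, GRCm38.p6, chr12:109734145-109734166, plus strand, 22 bases) is printed with its seed, bases 2 to 8, in capitals, since the seed is what pairs with target transcripts.
miR-134-5p: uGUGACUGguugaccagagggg

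The 7 letters that pair with the seed are CAGTCAC, and the 8mer site CAGTCACA adds an A opposite base 1 of the microRNA. In the annotated 3' UTRs (GENCODE M21, GRCm38) Creb1 held 3 such matches and the 7 other members held none. Each Creb1 site is printed 5' to 3' on the plus strand as the 22 bases opposite the microRNA, with the matching letters in capitals.
Creb1, 7-base match at chr1:64600355-64600361: tttgagtatgttacCAGTCACt
Creb1, 7-base match at chr1:64601554-64601560: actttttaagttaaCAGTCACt
Creb1, 8mer match at chr1:64602942-64602949: cagacatttatgtgCAGTCACA

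The sites lay 2977, 4176 and 5564 bases after the stop codon in the longest 3' UTR of Creb1, which has 7170 bases. The first was contained in 2 of the 6 coding transcripts with a 3' UTR and the others in 1, so how much of the Creb1 RNA carried them depends on which end was used, and counts per gene cannot tell. The 3' UTR of Creb1 was longer than those of 98.8% of 21037 genes with one, and the other members' longest ran from 425 bases in Crtc2 to 3769 in Crtc1. Across those 21037 genes, 10.1% held the 7-letter match and 3.85% the 8mer in their longest 3' UTR, so a match is common and does not show a working site.

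**Figure D1:**
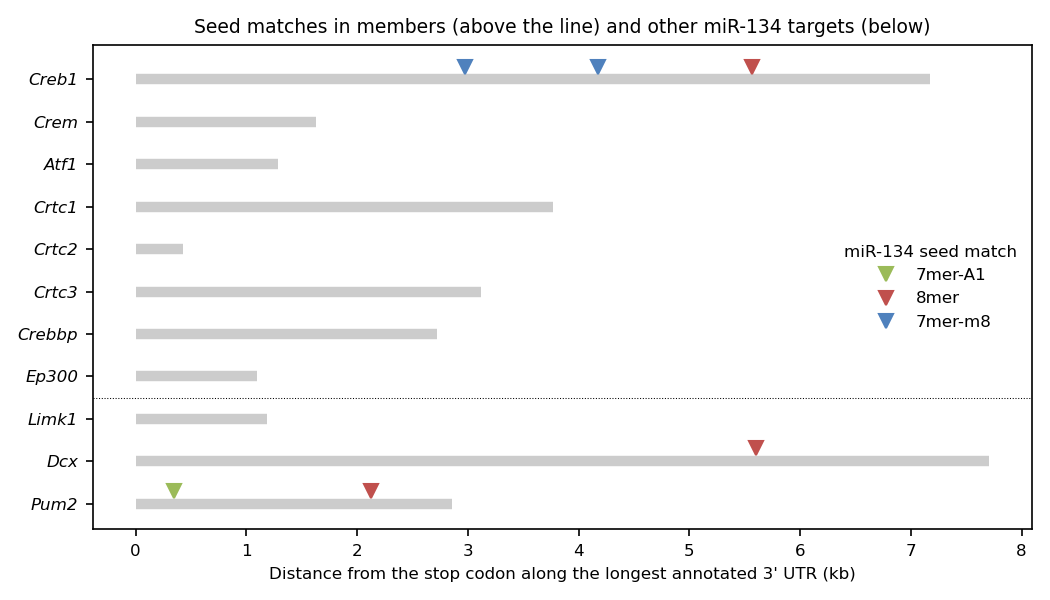
Positions of miR-134 seed matches along the longest annotated 3' UTR of the 8 members and of 3 other genes examined in the study as miR-134 targets. The horizontal axis is the distance from the stop codon in kilobases, grey bars are 3' UTR lengths, and triangles are matches, coloured by kind (8mer, 7mer-m8 for the 7-letter match CAGTCAC, 7mer-A1 for AGTCACA). Among members, triangles appear on Creb1 only, 3 of them.

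Library sizes ran from 28583298 to 38431058 counted fragments in the Ant-134 group and from 31985959 to 41978113 in the Scr group, and every member had at least 322 counts in every library. Markers of neurons were detected in all libraries, with 7 neuronal genes summing to 4895 to 5460 CPM (gene counts scaled to a common library size) under Ant-134 and 4942 to 5193 CPM under Scr. Of these 7 markers 1 was higher under Ant-134 at an unadjusted p under 0.05 in edgeR, as were 1 of 4 markers of dentate granule cells (sums of 204 to 230 CPM against 180 to 237 CPM) and 1 of 4 thalamic markers (65.9 to 121 CPM against 72.8 to 87.3 CPM). No marker of pyramidal cells, astrocytes, oligodendrocytes or choroid plexus had an unadjusted p under 0.05. Sums for some other cell types did differ: 6 microglial markers summed to 296 to 337 CPM under Ant-134 and 346 to 394 CPM under Scr, without overlap, and 3 of the 6 were lower at an unadjusted p under 0.05 in edgeR. Of 5 markers of meningeal fibroblasts 4 were lower by the same test, with sums of 81.8 to 143 CPM against 124 to 165 CPM. Sums for 6 choroid plexus markers spread widely within both groups, from 69.2 to 2575 CPM and from 80.9 to 2024 CPM. Markers of erythrocytes were higher in mean under Ant-134 for all 5 genes (median log2 fold change 1.01), with sums of 69.0 to 403 CPM against 44.0 to 91.7 CPM and none with an unadjusted p under 0.05, and 4 endothelial markers were all lower in mean (median -0.13), 1 of them at an unadjusted p under 0.05. The part of these differences in the members' values was not tested, and in bulk tissue fewer cells of a type cannot be told apart from less RNA per cell.

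None of the 8 members passed the test between Ant-134 and Scr. In edgeR's quasi-likelihood test no member had an unadjusted p under 0.05, against 4.18% of all tested genes (1.49% higher and 2.69% lower), and adjusted p-values (Benjamini-Hochberg) ran from 0.998 to 1.00. No gene among the 19782 had an adjusted p under 0.05 in this test, a share of 0%, while DESeq2 gave 1027 genes with an unadjusted and 16 with an adjusted p under 0.05, none of them a member. The edgeR count of adjusted calls was 17 without Ant-134 replicate 1, again with no member among them. The 2 groups overlapped for every member, whereas they did not for 1.54% of all tested genes. Of the members, 6 had a higher mean under Ant-134 and 2 a lower one, with log2 fold changes from -0.024 in Crtc2 to 0.057 in Atf1 and a median of 0.032, beside 0.0026 over all tested genes.

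Creb1, the member with the seed matches, was at 49.6, 46.1, 50.1, 52.0 and 46.6 CPM in Ant-134 replicates 1 to 5. The Scr replicates 1 to 4 gave 49.2, 47.9, 47.0 and 51.0 CPM. Both the highest and the lowest of the 9 values belonged to Ant-134 mice, and the Scr values lay between them. The means were 48.9 ± 2.46 CPM (SD, n = 5) under Ant-134 and 48.8 ± 1.70 CPM (SD, n = 4) under Scr. The log2 fold change was 0.0027 (SE 0.050; edgeR p = 0.957; exact permutation p = 0.992, two-sided, over all splits of the 9 mice). Its 95% interval, -0.10 to 0.11, corresponds to between 0.930-fold and 1.08-fold, so a rise of the transcript above 1.08-fold lay outside it.

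Crem, whose gene makes both activators and repressors of CRE-driven transcription from different promoters, was the lowest and most variable member. It was at 11.9, 10.2, 14.1, 11.7 and 13.2 CPM in Ant-134 replicates 1 to 5. In Scr replicates 1 to 4 it was at 13.01, 11.1, 9.80 and 13.1 CPM. The groups covered nearly the same range, and their means were 12.2 ± 1.496 CPM (SD, n = 5) and 11.8 ± 1.59 CPM (SD, n = 4). The log2 fold change was 0.053 (SE 0.11, 95% interval -0.18 to 0.29, edgeR p = 0.635; exact permutation p = 0.667), and its biological coefficient of variation, the spread between mice of 1 group beyond counting error, was 12.4%. The counts sum over all 39 annotated Crem transcripts and cannot separate activator from repressor forms. Gm6225 lies on the opposite strand within the Crem locus (GRCm38, chr18:3266048-3337748, minus strand), and whether counting used strand is not given in the sources used here.

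Atf1, a close relative of CREB that binds the same element, was at 14.8, 12.7, 11.5, 12.4 and 13.8 CPM in Ant-134 replicates 1 to 5. It was at 11.7, 12.1, 13.6 and 12.8 CPM in Scr replicates 1 to 4. The lowest and the highest library were both from Ant-134 mice. The log2 fold change of 0.057 was the largest of the 8 with all mice, with an SE of 0.087, but 0.0057 without Ant-134 replicate 1, and its 95% interval ran from -0.13 to 0.24 (edgeR p = 0.525; exact permutation p = 0.548).

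**Figure D2:**
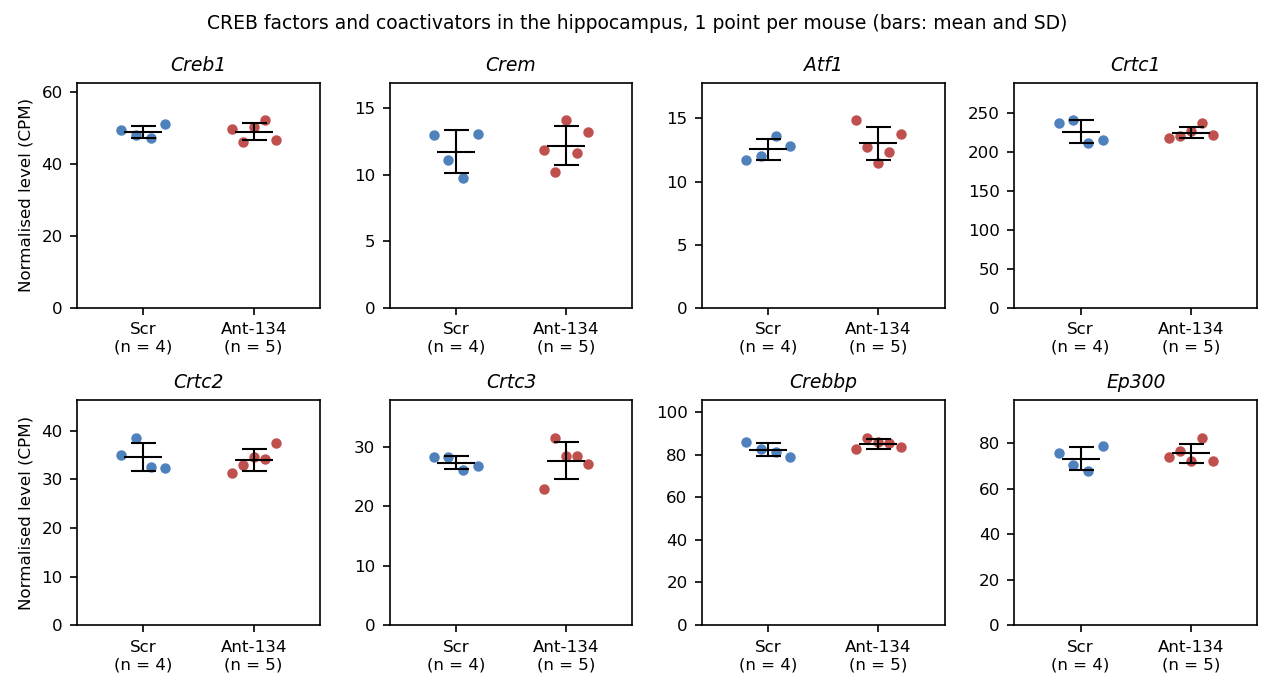
Normalised level (CPM) of each member in each mouse, Scr in blue (n = 4) and Ant-134 in red (n = 5), with black bars for the mean and SD and every axis starting at 0. In all 8 panels the points of the 2 groups overlap, as for Creb1 with means of 48.8 and 48.9 CPM.

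Among the CRTC coactivators, Crtc1, the form best known from neurons, was at 217, 220, 227, 237 and 222 CPM in Ant-134 replicates 1 to 5. It was at 237, 240, 211 and 215 CPM in Scr replicates 1 to 4. The Scr mice fell into a higher and a lower pair, and all 5 Ant-134 mice lay within the Scr range. The log2 fold change was -0.0066 (SE 0.049, 95% interval -0.11 to 0.097, edgeR p = 0.895; exact permutation p = 0.913).

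Crtc2, the form best known from liver metabolism, was at 31.3, 33.0, 34.6, 34.1 and 37.4 CPM under Ant-134, in replicate order. Under Scr it was at 35.1, 38.6, 32.5 and 32.3 CPM. Its log2 fold change of -0.024 (SE 0.067, 95% interval -0.17 to 0.12, edgeR p = 0.727; exact permutation p = 0.754) was the lowest of the 8. Crtc3, at 22.9, 31.6, 28.5, 28.5 and 27.1 CPM under Ant-134 and 28.3, 28.3, 26.1 and 26.7 CPM under Scr, spread more among the Ant-134 mice than among the Scr mice. Its SDs were 3.16 CPM (n = 5) and 1.15 CPM (n = 4), with Ant-134 replicate 1 the lowest and Ant-134 replicate 2 the highest of all 9 mice. The log2 fold change was 0.017 (SE 0.078, edgeR p = 0.827; exact permutation p = 0.913).

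Crebbp and Ep300 encode the paralogous acetyltransferases that CREB recruits, and loss of an allele of Crebbp is known to impair memory in mice. Crebbp was at 82.5, 88.0, 85.8, 85.4 and 83.4 CPM in Ant-134 replicates 1 to 5. In Scr replicates 1 to 4 it was at 86.1, 82.7, 81.4 and 78.9 CPM. Only Scr replicate 1 reached the upper part of the Ant-134 range, and the means were 85.0 ± 2.16 CPM (SD, n = 5) and 82.3 ± 3.01 CPM (SD, n = 4). Crebbp came nearest to a difference among the 8: its log2 fold change was 0.047 (SE 0.041, 95% interval -0.039 to 0.13), with an edgeR p of 0.263 and an exact permutation p of 0.159, where the smallest the design can give is 0.00794. Its biological coefficient of variation of 5.49% was the lowest among members, below those of all but 11.2% of the genes nearest to it in level. Ep300 was at 74.1, 76.7, 72.4, 82.5 and 72.4 CPM under Ant-134, in replicate order, and at 76.0, 70.5, 67.8 and 78.7 CPM under Scr. Its log2 fold change was 0.046 (SE 0.054, 95% interval -0.070 to 0.16, edgeR p = 0.409; exact permutation p = 0.452) and 0.011 without Scr replicate 3, with the lowest value from a Scr mouse and the highest from an Ant-134 mouse. The 95% intervals of 7 members lay within 0.25 of no change on the log2 scale, the exception being Crem, and the members' intervals reached 0.13 to either side of the estimate (median), beside 0.22 over all tested genes.

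**Figure D3:**
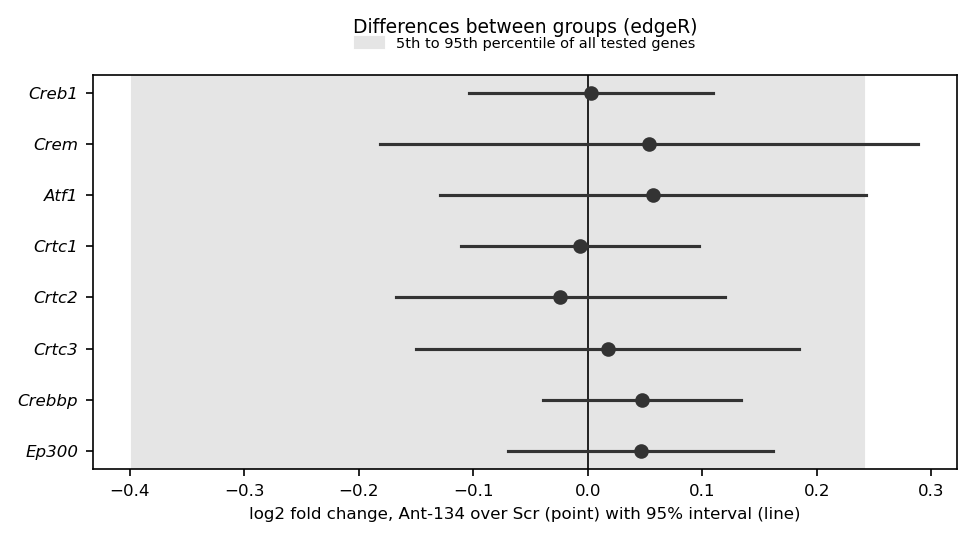
Log2 fold change of each member, Ant-134 over Scr (points), with its 95% interval (lines) from edgeR. The grey band spans the 5th to the 95th percentile of the log2 fold changes of all tested genes, from -0.40 to 0.24. All 8 lines cross 0, and all 8 points lie between -0.024 and 0.057.

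Levels can be compared between genes only per length, in FPKM (fragments per kilobase of gene model, scaled to library depth), and on that scale Crtc1 stood well above the rest. Its mean over the 9 mice was 19.9 ± 0.918 FPKM (SD), at the 86.6th percentile of tested genes. Crtc2 followed at 8.30, Crebbp at 6.13, Ep300 at 5.17, Atf1 at 4.15, Creb1 at 3.52, Crtc3 at 2.77 and Crem at 2.02 FPKM. Creb1, the factor that names the pathway, therefore lay near the middle of all tested genes (50.8th percentile) and below Atf1. The ranges of Ep300 and Atf1, of Atf1 and Creb1, and of Crtc3 and Crem overlapped between mice, yet within each of the 9 libraries the order was the same throughout. FPKM here divides by the full gene model (13742 bases for Creb1 and 3060 for Atf1), so it understates a gene whose shorter transcripts predominate.

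**Figure D4:**
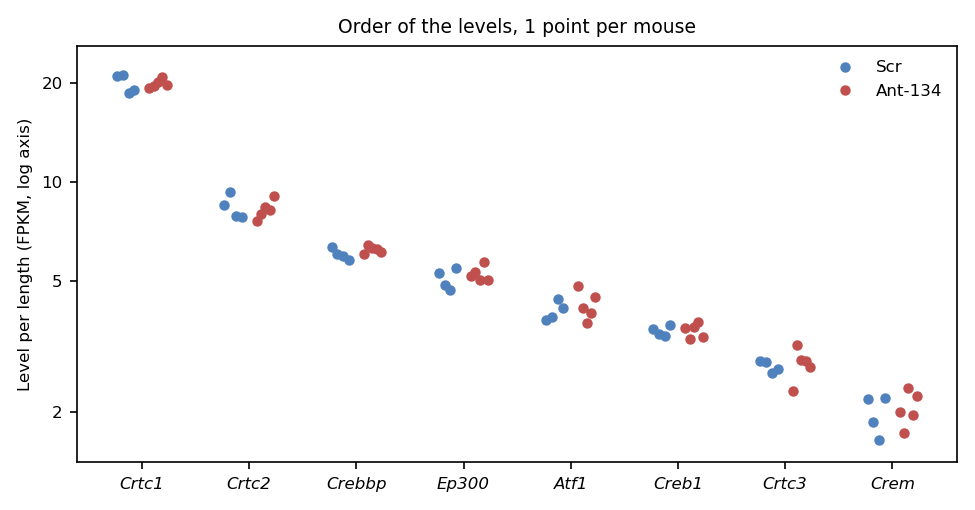
Level per length (FPKM, log axis) of the members in order of their mean, 1 point per mouse, Scr in blue and Ant-134 in red. Crtc1 lies highest with values from 18.7 to 21.2 FPKM and Crem lowest with values from 1.64 to 2.37 FPKM.

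No shift in the make-up of a family passed a test. Of the summed FPKM of the CREB factors, Creb1 took 36.0% ± 2.06 under Ant-134 (SD, n = 5) and 36.8% ± 0.672 under Scr (SD, n = 4), with Atf1 at 43.0% and 42.5% and Crem at 20.9% and 20.6%. Crtc1 made up 64.3% of the CRTC sum under Ant-134 and 64.2% under Scr, and Crebbp 54.3% and 54.2% of the acetyltransferase pair. Within families 6 log2 ratios were compared between groups, and the largest difference, in Creb1 over Crem, was -0.054 (means of 0.79 and 0.84; exact permutation p = 0.635, two-sided; 0.933 after adjustment over the 6). For Creb1 over Crem, linear ratios ran from 1.51 in Ant-134 replicate 5 to 2.06 in Scr replicate 3, a wider spread between mice than between groups. The other ratio differences were between -0.050 and 0.017, with exact permutation p-values from 0.651 to 0.984.

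Between mice the members had correlations of both signs. Of the 28 pairs, 15 had a positive correlation over the 9 mice (log2 CPM), and the median r was 0.21. Crtc1 and Crtc2 had the highest Pearson correlation (r = 0.68, permutation p = 0.0465; Spearman rho = 0.78, permutation p = 0.0172; adjusted p over the 28 pairs = 0.432), with r = 0.58 when the 2 mice farthest from the median of Crtc1 were left out. Crtc3 and Crebbp had a higher Spearman rho (0.80, permutation p = 0.0138; Pearson r = 0.64, permutation p = 0.0650; adjusted p = 0.432), with r = 0.78 when the 2 mice farthest from the median of Crtc3 were left out. Atf1 and Crtc3 had the lowest Pearson correlation (r = -0.71, permutation p = 0.0290; rho = -0.72, permutation p = 0.0369; adjusted p = 0.432), with r = -0.42 without the 2 mice farthest from the median of Atf1. No pair had an adjusted p under 0.05. Creb1 followed Ep300 most closely among members (r = 0.62, rank 1156 among 19781 genes). The 5 genes whose log2 CPM over the 9 mice was most like that of Creb1 were Gm38394 (r = 0.95), Ago1 (r = 0.94), which encodes an Argonaute protein that carries microRNAs, Cdk14 (r = 0.94), Amd2 (r = 0.94) and Lonrf1 (r = 0.92), picked from 14 genes with r over 0.9. With so many genes and so few mice such values are given as a description.

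Around the members, 4 of the 102 distinct genes tested in the pathway lists (3.92%) had an unadjusted p under 0.05 in edgeR, beside 4.18% of all tested genes. DESeq2 gave 7 of these 102 (6.86%), beside 4.28% of the same tested genes and 2.74% of all genes to which it gave a p. None had an adjusted p under 0.05 from either tool. Each of the 4 genes called by edgeR lost its unadjusted p under 0.05 when certain mice were left out, while its direction stayed the same in every such fit. The nearest relatives of CREB, 14 of 15 tested, were split evenly between higher and lower (median log2 fold change -0.0091, and from -0.049 to 0.031 with each mouse left out in turn). Crebl2, a small relative of CREB, was higher at 33.9 ± 1.39 CPM against 30.8 ± 2.62 CPM, a log2 fold change of 0.14 (SE 0.063, edgeR p = 0.0427, adjusted p = 0.998; exact permutation p = 0.0476), while only the highest Scr mouse entered the Ant-134 range. Without Scr replicate 3 its log2 fold change was 0.091, no longer past an unadjusted p of 0.05. Atf4, the stress-response factor, and Atf6b, which acts in the endoplasmic reticulum stress response, had the highest levels per length in this list (48.2 and 38.3 FPKM) and log2 fold changes of 0.035 and 0.055.

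Of 32 kinases, phosphatases and other regulators upstream of CREB or CRTC, 23 had a higher and 9 a lower mean under Ant-134. Over all tested genes 51.2% were higher. In edgeR 1 gene in each direction passed an unadjusted p of 0.05, beside 4.18% of all tested genes in either direction. DESeq2 gave 4 higher and 1 lower, 15.6% of the list, beside 4.28% of the genes tested in edgeR. The median log2 fold change was 0.023, beside 0.0026 over all tested genes. With a mouse left out it ran from -0.00041 (without Scr replicate 2) to 0.038. Ppp3r1, the regulatory subunit of calcineurin, which dephosphorylates CRTC proteins, was at 897, 864, 943, 955 and 887 CPM in Ant-134 replicates 1 to 5 and at 867, 833, 837 and 855 CPM in Scr replicates 1 to 4. All but Ant-134 replicate 2 were above every Scr mouse, and the log2 fold change was 0.10 (SE 0.041, edgeR p = 0.0289, adjusted p = 0.998; exact permutation p = 0.0238). It lost an unadjusted p under 0.05 in 4 of the 9 fits with a mouse left out, in which the log2 fold change was 0.081 to 0.095. The catalytic subunits Ppp3ca and Ppp3cb, singled out after their values were seen, had log2 fold changes of 0.094 (95% interval -0.0036 to 0.19) and 0.080 (95% interval -0.013 to 0.17). The unadjusted p was 0.0579 for Ppp3ca and 0.0854 for Ppp3cb in edgeR, and 0.0364 and 0.0429 in DESeq2, with no adjusted p under 0.05 from either tool. Ppp3cb was at 366 to 401 CPM under Ant-134 and at 359 to 361 CPM under Scr, so every Ant-134 mouse was above every Scr mouse. It was the 1 gene of the 32 without overlap between groups, beside 1.54% of all tested genes.

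Rps6ka1, which encodes the CREB kinase RSK1, was lower at 22.03 ± 0.499 CPM under Ant-134 (SD, n = 5) against 24.6 ± 2.31 CPM under Scr (SD, n = 4), a log2 fold change of -0.16 (SE 0.066, edgeR p = 0.0280, adjusted p = 0.998; exact permutation p = 0.0635). Its Ant-134 values of 21.4 to 22.8 CPM lay at the lower end of the Scr range of 21.6 to 26.95 CPM. With a mouse left out its log2 fold change ran from -0.22 to -0.12, and it was -0.12 without Scr replicate 1. Prkaca, the catalytic subunit of PKA, was at 241 ± 7.77 CPM against 228 ± 2.87 CPM (log2 fold change 0.078, edgeR p = 0.0673, DESeq2 p = 0.0316, no adjusted p under 0.05; exact permutation p = 0.0397). Camk4, which encodes CaMKIV, was at 158 ± 17.8 against 155 ± 11.5 CPM (exact permutation p = 0.802). Sik1, which holds CRTC proteins out of the nucleus and is itself a CREB target, was at 12.8 ± 3.01 against 13.7 ± 2.68 CPM (exact permutation p = 0.627). Prkar1a, the regulatory subunit of PKA with the second highest level per length in the list, had a log2 fold change of 0.025.

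Of 22 other acetyltransferases, deacetylases and CREB cofactors, 21 were tested and none had an unadjusted p under 0.05 in edgeR. Their median log2 fold change was 0.0026, ran from -0.0026 (without Ant-134 replicate 2) to 0.027 (without Scr replicate 1) with a mouse left out, and so had no steady sign. Sfpq and Nono, RNA-binding proteins and the most abundant per length, had log2 fold changes of 0.037 and 0.038. Creb3l4 among the relatives and Fhl5 among the cofactors did not pass the filter on low counts.

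The 32 CREB target genes were listed as lying downstream of CREB, and whether they followed CREB activity here was not tested. Their promoters were searched for the CRE, TGACGTCA, which reads the same on both strands, from 250 bases before to 50 after the annotated start (RefSeq, GRCm38.p6). It was present in 6 of the 24 target promoters in the table (25%) and in 588 of 32851 promoters in all (1.79%); the shorter element TGACG, on either strand and also contained in each CRE, was in 19 of 24 (79.2%) against 20.8%. The targets were listed because the CRE is known to drive many of them, so this is a description of the list. Of the members, Creb1, Atf1, Crtc1, Crtc3, Crebbp and Ep300 were in the table: none held the CRE in this window, and Atf1 held the shorter element. The 6 full matches are printed on the strand of the gene, with the CRE in capitals, to show what CREB and ATF1 bind. They span chr1:79440076-79440105 (Scg2), chr16:23890874-23890903 (Sst), chr17:26508597-26508626 (Dusp1) and chr13:99900777-99900806 (Cartpt) on the minus strand, chr13:75089768-75089797 (Pcsk1) on the plus strand and chr1:134079303-134079332 (Btg2) on the minus strand.
Scg2, 68 bases before the start: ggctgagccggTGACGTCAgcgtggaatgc
Sst, 48 bases before the start: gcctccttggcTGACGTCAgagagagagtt
Dusp1, 143 bases before the start: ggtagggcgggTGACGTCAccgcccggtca
Cartpt, 112 bases before the start: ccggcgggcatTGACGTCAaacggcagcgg
Pcsk1, 78 bases before the start: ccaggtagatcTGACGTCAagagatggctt
Btg2, 166 bases before the start: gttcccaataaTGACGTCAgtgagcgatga

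None of these 6 genes had an unadjusted p under 0.05 in edgeR. Sst (somatostatin, the neuropeptide whose promoter is a classic case of CRE-driven transcription) was at 179 ± 22.1 CPM under Ant-134 (SD, n = 5) and 175 ± 15.8 CPM under Scr (SD, n = 4). Log2 fold changes were 0.061 for Scg2, 0.038 for Sst, 0.053 for Dusp1, 0.41 for Cartpt (SE 0.52), -0.080 for Pcsk1 and 0.057 for Btg2.

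Over the whole target list 22 genes had a higher and 10 a lower mean under Ant-134, with a median log2 fold change of 0.052. Over all tested genes 51.2% were higher and the median was 0.0026. In edgeR 1 gene of the list, Nr4a2, had an unadjusted p under 0.05, beside 4.18% of all tested genes. Nr4a2, a nuclear receptor induced by activity, was at 47.7, 49.3, 50.9, 50.3 and 51.4 CPM in Ant-134 replicates 1 to 5 and at 50.9, 51.2, 61.9 and 57.8 CPM in Scr replicates 1 to 4. Its log2 fold change was -0.15 (SE 0.060, edgeR p = 0.0229, adjusted p = 0.998; exact permutation p = 0.0317), opposite to the median of the list. Without Scr replicate 3 it was -0.094, no longer past an unadjusted p of 0.05. The positive median of the list came with a single mouse: without Ant-134 replicate 5 it was -0.048.

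In that mouse Fos, the classic immediate early gene, stood at 31.0 CPM. The other Ant-134 mice were at 10.5 to 12.6 CPM and the Scr mice at 10.1 to 15.9 CPM. Taken against the mean of the Scr mice (log2), its median target gene stood at 0.28, and the 8 other mice lay between -0.097 and 0.10. Its Creb1 level, 46.6 CPM, and its Crem level, 13.2 CPM, were both within the range of the other mice, as were its Crtc1 and Crebbp levels of 222 and 83.4 CPM. The Fos log2 fold change was 0.30 with all mice (SE 0.37; exact permutation p = 0.802) and -0.12 without that mouse. Npas4, a neuron-specific early gene, was also highest there at 26.04 CPM, followed by Ant-134 replicate 3 at 21.995 CPM and Scr replicate 4 at 21.8 CPM, and its log2 fold change went from 0.15 to 0.011 without it. Bdnf, the neurotrophin, was at 41.1 ± 2.31 and 40.2 ± 2.56 CPM and Vgf, a secreted neuropeptide precursor, at 265 ± 25.3 and 263 ± 39.5 CPM.

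**Figure D5:**
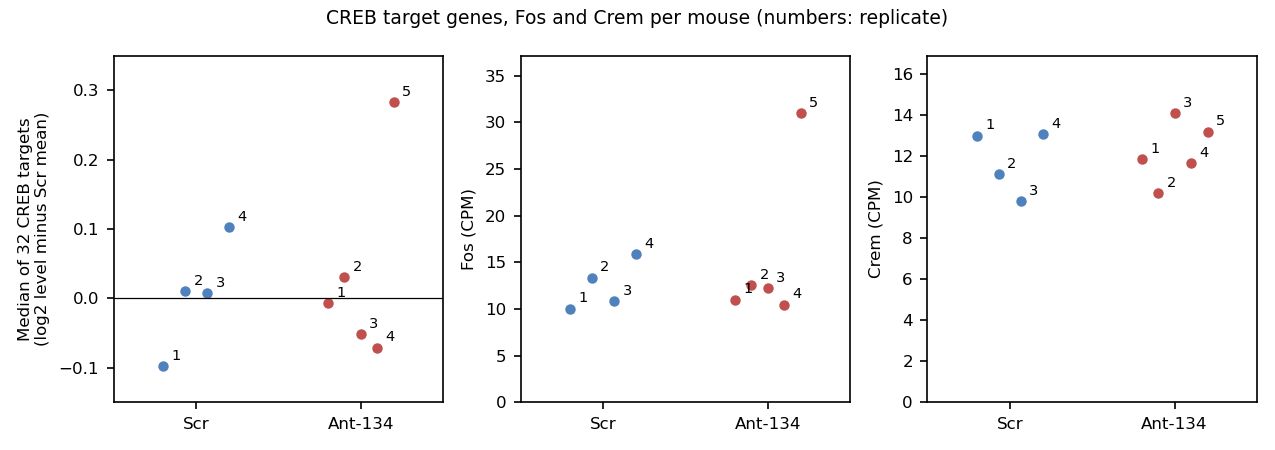
Median of the 32 CREB target genes (log2 level minus the Scr mean), Fos (CPM) and Crem (CPM) in each mouse, with replicate numbers beside the points, Scr in blue and Ant-134 in red. Ant-134 replicate 5 stands apart in the first 2 panels, with a median of 0.28 and Fos at 31.0 CPM, and lies among the others for Crem at 13.2 CPM.

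Beside Creb1, 3 other transcripts examined in the study as miR-134 targets are given here, and all 3 had a slightly lower mean under Ant-134 without passing an unadjusted p of 0.05. Dcx (doublecortin, needed for neuronal migration) holds an 8mer match, as does Pum2 (a translational repressor), while Limk1 (a kinase of dendritic spines) holds no match to these letters in its annotated 3' UTRs. These sites are printed like those of Creb1.
Dcx, minus strand, chrX:143857940-143857947: gttctacccctgttCAGTCACA
Pum2, plus strand, chr12:8751845-8751852: tgtttcaccattctCAGTCACA

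Dcx was at 39.2 ± 2.89 CPM under Ant-134 (SD, n = 5) and 39.8 ± 2.46 CPM under Scr (SD, n = 4), a log2 fold change of -0.024 (95% interval -0.16 to 0.11; exact permutation p = 0.683). Log2 fold changes were -0.0089 for Pum2 (exact permutation p = 0.881) and -0.042 for Limk1 (p = 0.579 by the same test). For comparison, 1797 tested genes held the 7-letter match in their longest 3' UTR, and their median log2 fold change was 0.0065. It was 0.0058 over 13481 tested genes without a match. Of the genes with a match 1.39% were higher and 2.56% lower at an unadjusted p under 0.05, and of those without 1.57% and 2.89%. Creb1, with 3 matches and a log2 fold change of 0.0027, was among 30 tested genes with 3 or more, whose median was 0.0021.

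The loci of the members are, on GRCm38, chr1:64532645-64604548 (Creb1, plus strand), chr15:100227819-100261244 (Atf1, plus), chr8:70382355-70439579 (Crtc1, minus), chr3:90254163-90264125 (Crtc2, plus), chr7:80586627-80688877 (Crtc3, minus), chr16:4081328-4213997 (Crebbp, minus) and chr15:81585351-81652077 (Ep300, plus). Creb1, Atf1, Crtc1 and Crtc2 overlap no other annotated gene, whereas Crtc3 overlaps Gm44931 and, on the other strand, Gm15880, Crebbp overlaps Gm37186, and Ep300 overlaps Gm23880 and Gm22067.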

How the data were processed

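Poly-A-selected RNA from 9 hippocampi was sequenced in pairs. The authors mapped reads to GRCm38 (mm10) with HISAT2 2.0.5 and deposited gene counts from featureCounts 1.5.0-p3 and, separately, FPKM values; whether counting used strand, and the tool behind FPKM, are not given in the sources used here. Groups came from the sample labels. Deposited coordinates had the start and end of GENCODE M21 for 98.3% of the 54409 gene identifiers shared with it. The count test was that of edgeR 4.0.16 under R 4.3.3 (TMM scaling, filterByExpr with a minimum count of 10, robust quasi-likelihood test, Benjamini-Hochberg adjustment over all 19782 tested genes), with DESeq2 1.42.0 and limma 3.58.1 as alternatives; for limma, FPKM were put on a log2 scale after adding 1 or 0.1. CPM are scaled by TMM, and log2 CPM for correlations and permutation tests used a prior count of 2. Exact permutation tests ran over all splits of 5 against 4 mice, two-sided. Intervals are 95% intervals for the log2 fold change between groups, with a width that reflects the spread between these mice. They do not span the values of single mice. Libraries of 1 group differed by 8.37 to 20.6 times sampling noise (chi-square per gene), so none was a copy of another. The test scripts were checked on simulated data.

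The members, the gene lists and the tests were chosen with earlier results of these data known, so no p is adjusted over the members alone. Named from each list were every gene with an unadjusted edgeR p under 0.05, the 2 highest in FPKM and genes picked by function (Fos, Npas4, Bdnf, Sik1, Camk4, Prkaca, Limk1, Dcx and Pum2; 1 more is not reported here), besides genes with a full CRE and those said to be singled out. Sequences and 3' UTRs come from RefSeq (GRCm38.p6) and GENCODE M21.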

Additional observations from a re-analysis of the deposited data

Results flagged for a closer look

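Members, family ratios, named genes and library totals were screened in each group for a sample far from the rest (Dixon's criterion at 95%), 72 groups of values in all, of which chance would give about 3.6. No value of the 8 members and no ratio between them stood out. The 3 that did were Fos, which reached 31.0 CPM in Ant-134 replicate 5 while the other 4 mice of that group lay between 10.5 and 12.6 CPM, and Nono on both sides. Nono was 134 CPM in Ant-134 replicate 3 (143 to 146 CPM in its group otherwise) and 141 CPM in Scr replicate 1 (138 CPM in its group otherwise).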

How the results depend on the processing

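None of the 8 members had an unadjusted p under 0.05 in any of 19 alternative settings, with DESeq2, other scalings and filters, limma on FPKM and each mouse left out in turn; the lowest was 0.145, for Crebbp without Scr replicate 1. Exact permutation tests on members and within-family ratios gave no p under 0.05 in 11 settings each; the lowest over the members was 0.159 as reported and 0.0536 without Scr replicate 1. Directions of values near 0 were not stable. Y-linked genes were expressed in 3 of 5 Ant-134 mice and 3 of 4 Scr mice, so both groups mixed males and females. With the level of these genes as a covariate the Creb1 log2 fold change was -0.0011. With each mouse left out in turn it ran from -0.021 to 0.025, that of Crem from -0.024 to 0.11, Crtc1 from -0.037 to 0.025, Crtc2 from -0.060 to 0.034 and Crtc3 from -0.035 to 0.079, and those of Atf1 (0.0057 to 0.098), Crebbp (0.028 to 0.066) and Ep300 (0.011 to 0.083) kept their sign but not their size. The ratio differences ran from -0.10 to 0.013 (Creb1 over Crem), -0.11 to -0.0079 (Creb1 over Atf1), -0.0065 to 0.055 (Crtc1 over Crtc2), -0.071 to 0.041 (Crtc1 over Crtc3), -0.071 to 0.028 (Crtc2 over Crtc3) and -0.054 to 0.032 (Crebbp over Ep300). Genes with an unadjusted p under 0.05 numbered 827 as reported, 1775 without a filter on low counts and 1467 with limma on all genes, which test more genes, and from 629 to 973 with a mouse left out. Genes with an adjusted p under 0.05 numbered 0 as reported, 14 without the filter, 2 with the replicate block, 16 with DESeq2, 17 without Ant-134 replicate 1 and at most 1 without any other mouse. Over the pathway lists, genes with an unadjusted p under 0.05 numbered 4 as reported, 7 with DESeq2 (6.86% of the lists, beside 4.28% of the same tested genes) and from 2 to 6 with a mouse left out; the count was 2 without Ant-134 replicate 3, Scr replicate 2 or Scr replicate 3. Crebl2, Ppp3r1, Rps6ka1 and Nr4a2 lost an unadjusted p under 0.05 in 5, 4, 3 and 3 of the 9 such fits, with the highest edgeR p at 0.158 (without Scr replicate 3), 0.0696 (Scr replicate 2), 0.106 (Scr replicate 1) and 0.113 (Scr replicate 3); the cause was not tested. Same-numbered mice did not deviate together (correlations of -0.12 to 0.012 over 4 pairs), so the numbers pair nothing; with the replicate number as a block 808 genes had an unadjusted p under 0.05, Rps6ka1 was at -0.15 (p = 0.0718), and the paired difference was -0.0075 for Crebbp over Ep300 (exact p = 0.75) and 0.055, higher in all 4 pairs, for Crtc1 over Crtc2 (exact p = 0.125, the smallest that 4 pairs allow). The upper bounds of the members' 95% intervals ran from 1.07-fold (Crtc1) to 1.22-fold (Crem), so rises up to these sizes lie within the intervals.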
